A study of Mus musculus with 24 samples.

Results

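The replication licensing genes, which encode the replicative helicase, the factors that load it onto DNA and the factors that switch it on, were examined in LSK-SLAM cells of young and old mice. The group was defined by name, though with earlier results of these data known, as *Mcm2*, *Mcm3*, *Mcm4*, *Mcm5*, *Mcm6*, *Mcm7*, *Mcm10*, *Cdc6*, *Cdt1* and *Gins1*. Of these 10 genes, 9 had a row among the 18762 genes of the table, and *Mcm4* was not analysed here. All 9 passed the filter on low values, namely an average normalized read count of 10 or more across all mice, which left 12354 genes to be tested. LSK-SLAM cells are bone marrow cells sorted as lineage-negative, Sca-1+, c-Kit+, CD48- and CD150+, a fraction rich in hematopoietic stem cells (HSCs). They were taken from 5 young mice aged 4 to 5 months and 7 old mice aged 20 to 22 months by their labels, all wild-type C57BL/6, with no treatment named in those labels. The text of the study gives other ages for the young and old mice of its RNA-seq, and the ages of the labels are used here. Each mouse was 1 sample, although it carries 2 labels among the 24 labelled samples. A normalized read count is the number of reads on a gene divided by a scaled library size, and rested on 861047 to 5118507 recovered reads per mouse. The last character of each mouse label is A (2 young and 4 old mice) or B (3 young and 3 old mice), and its meaning is not given in the sources used here. Mice with letter A had 861047 to 3106243 reads and mice with letter B 3233516 to 5118507, so the age comparison of the members is also given within the letters.

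In licensing, the origin recognition complex together with *Cdc6*, an ATPase, and *Cdt1*, a helicase chaperone, places rings built from MCM proteins onto DNA before S phase. The rings stay inactive until the kinases of S phase, *Mcm10*, CDC45 and the GINS complex, to which *Gins1* contributes a subunit, turn them into moving helicases. Geminin and the destruction of CDT1 keep an origin from being licensed again in the same cycle. Most HSCs are quiescent, licensing genes are classic targets of the E2F transcription factors, and cells that leave the cycle commonly lose MCM proteins.

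The E2F words in the promoters of these genes are shown first, because they are a feature that most members share and that the choice of members did not use. Promoters covered 250 bases before and 50 bases after each RefSeq gene start on build GRCm38.p6, and were found for 8 of the 9 members, 9 promoters in all. The words searched on both strands were TTTCCCGC, TTTCGCGC, TTTGCCGC and TTTGGCGC, and 6 of these 8 members held at least 1 of them. Among all 32851 promoters of the same length the share was 2.26%, and among the 12380 promoters of genes tested it was 3.59%. In the stretches below, written 5′ to 3′ on the strand of the gene, capitals mark the E2F words and positions count from 0 at the RefSeq start.
Mcm6, positions -140 to -10, chr1:128359715-128359845, minus strand: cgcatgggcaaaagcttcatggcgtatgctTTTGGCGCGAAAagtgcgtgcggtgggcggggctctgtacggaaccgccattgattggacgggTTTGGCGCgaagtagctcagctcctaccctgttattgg
Mcm5, positions -183 to -112, chr8:75109326-75109397, plus strand: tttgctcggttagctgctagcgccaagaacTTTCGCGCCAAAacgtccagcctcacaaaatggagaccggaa
Cdc6, positions -168 to -101, chr11:98907983-98908050, plus strand: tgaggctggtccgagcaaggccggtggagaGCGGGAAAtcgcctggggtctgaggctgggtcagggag
Mcm7, positions -176 to -148, chr5:138172031-138172059, minus strand: aatttcgaaccGCGGGAAAcagggtgtcc
Mcm3, positions 18 to 46, chr1:20820266-20820294, minus strand: gGCGGGAAAacttgggaagtTTTGGCGCc
Cdt1, positions 21 to 49, chr8:122568036-122568064, plus strand: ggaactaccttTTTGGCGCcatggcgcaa
In *Mcm6* and *Mcm5* a pair of words overlapped on opposite strands, which gives 1 longer run of capitals. The *Mcm7* promoter held another word after its start. By the GENCODE vM21 annotation, the *Mcm6* and *Mcm5* stretches lie outside the gene, before its start, the *Cdc6* stretch lies in an intron of *Cdc6*, and those of *Mcm7*, *Mcm3* and *Cdt1* lie in exons, at least partly in an untranslated region, that of *Mcm7* also of *Ap4m1* on the other strand. The promoters of *Mcm2* and *Mcm10* held none of these words in this window. The CCAAT box (CCAAT) was in promoters of 6 of the 8 members, against 37.4% of all promoters, and the CHR element (TTTGAA) in that of 1, *Mcm2*, against 17.9%. A match of letters is a description, not evidence of binding.

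Each licensing gene had a lower mean in old than in young LSK-SLAM cells, but none passed the test across all genes. With limma and Benjamini-Hochberg adjustment, 0 of the 9 members had an adjusted p under 0.05, where 13 of the 12354 genes (0.105%) did. At an unadjusted p under 0.05, 6 members were lower in old mice, *Mcm2*, *Mcm3*, *Mcm5*, *Mcm6*, *Mcm7* and *Cdt1*, and 0 were higher, against 1.99% of all genes lower. The same 6 members had an unadjusted p under 0.05 with edgeR's quasi-likelihood and likelihood-ratio tests and with DESeq2 on recovered reads, which called 18, 41 and 57 genes at an adjusted p under 0.05 and again 0 members. A log2 fold change below 0 was found in 9 of 9 members and in 52.3% of all genes. The median log2 fold change of the members was -0.54, against -0.02 over all genes tested, and 3.20% of all genes lay below it. In bulk RNA, fewer cells that express a gene and less RNA per cell cannot be told apart. Ring genes varied together from mouse to mouse, so the members are not independent of each other.

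*Mcm6* (chr1:128331590-128359664), a subunit of the helicase ring, was the member with the highest counts. Gene positions here and for the other members are those of GENCODE vM21 on GRCm38, in which all 9 are protein-coding genes. Young mice 1 to 5 had 294, 249.5, 391, 403 and 352 normalized read counts, and the 7 old mice ranged from 111 over a median of 237 to 257. A single young mouse, mouse 2, lay within the range of the old mice, and the other 4 lay above it. The mean was 338 ± 65.4 (SD, n = 5) in young mice against 212 ± 52.7 (SD, n = 7) in old mice, 37.2% lower (two-sided exact permutation test, p = 0.00631). By limma its log2 change, old over young, was -0.69 (standard error, SE, 0.22, adjusted p = 0.709).

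*Mcm2* (chr6:88883474-88898780), the ring subunit that also binds histones, had 115, 101, 163, 134 and 158 normalized read counts in young mice 1 to 5. In old mice it ranged from 55.2 over a median of 88.6 to 125. In this gene 3 young mice lay above every old mouse and 4 old mice below every young mouse. The mean was 134 ± 26.8 (SD, n = 5) in young mice against 87.7 ± 25.8 (SD, n = 7) in old mice. Its log2 change, old over young, was -0.64 (SE 0.22, adjusted p = 0.796 by limma), and the exact permutation test gave p = 0.0215.

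*Mcm3* (chr1:20802968-20820312), another ring subunit, had 245, 153, 282, 261 and 266 normalized read counts in the young mice and 97.9 to 228 in the old mice, with a median of 172. Young mouse 2 stood apart from the other young mice and lay among the old ones, while the other 4 young mice were above every old mouse. Means were 241 ± 51.0 (SD, n = 5) in young mice against 172 ± 44.6 (SD, n = 7) in old mice. The log2 change, old over young, was -0.50 (SE 0.22, adjusted p = 0.9997 by limma), and the exact permutation test gave p = 0.0480.

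*Mcm5* (chr8:75109569-75128439), a ring subunit at the gate through which DNA enters, had 96.4, 99.99, 99.3, 81.6 and 113 normalized read counts in the young mice. The 7 old mice ranged from 50.4 over a median of 58.1 to 89.0. They split into 4 mice below every young mouse and 3 mice between 87.3 and 89.0, above young mouse 4. Means were 97.97 ± 11.03 (SD, n = 5) in young mice against 68.7 ± 18.6 (SD, n = 7) in old mice. The log2 change, old over young, was -0.54 (SE 0.20, adjusted p = 0.904 by limma), with p = 0.0164 in the exact permutation test.

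*Mcm7* (chr5:138164583-138172422), whose gene body also holds the microRNA genes *Mir106b*, *Mir93* and *Mir25*, had 106, 110.1, 194, 191 and 191 normalized read counts in young and 48.9 to 147 in old mice, with a median of 106. The young mice with letter A lay inside the range of the old mice, and the young mice with letter B above it. Means were 158 ± 45.9 (SD, n = 5) in young mice against 100.1 ± 34.7 (SD, n = 7) in old mice. Its log2 change, old over young, was -0.69 (SE 0.27, adjusted p = 0.969 by limma), and the exact permutation test gave p = 0.0480. These reads are uncertain, because 23.3% of the 50-base words of its transcripts also occur in other genes, 758 of them in *Gm5487* and 223 in *Ap4m1*, which overlaps it on the other strand. For the other members this share was 3.93% in *Cdc6* (in *Gm9430*), 0.712% in *Mcm2*, 0.472% in *Mcm6* and 0.379% in *Mcm5*, and 0 in the rest.

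Of the loading factors, *Cdt1* differed more between the ages than *Cdc6* by its point estimate, a contrast that was not tested. *Cdt1* (chr8:122568015-122573554) had 59.7, 44.7, 42.6, 63.6 and 65.2 normalized read counts in young mice and ranged from 17.2 over a median of 32.6 to 44.3 in old mice. Old mouse 2 alone, at 44.3, lay above the lowest young mouse, so that 6 of 7 old mice were below every young mouse. The mean was 55.2 ± 10.7 (SD, n = 5) in young mice against 31.6 ± 9.40 (SD, n = 7) in old mice, 42.7% lower (exact permutation test, p = 0.00505). By limma the log2 fold change of *Cdt1* was -0.82 (SE 0.24, adjusted p = 0.603), which ranked 74 by p among the 12354 genes tested. Its lowest value rested on 14 reads, in old mouse 7, the mouse with the fewest reads in all.

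*Cdc6* (chr11:98907801-98923940) had 47.6, 58.2, 45.5, 28.3 and 46.1 normalized read counts in young and 18.3 to 61.6 in old mice, with a median of 38.2. The ages overlapped across nearly the whole range. The mean was 45.1 ± 10.7 (SD, n = 5) in young mice against 37.0 ± 16.4 (SD, n = 7) in old mice. Its log2 change, old over young, was -0.37 (SE 0.30, adjusted p = 0.9997 by limma), with p = 0.280 in the exact permutation test. The old mice fell into a lower trio with letter B, from 18.3 to 24.3, and 4 mice with letter A, from 38.2 to 61.6.

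The members that act when the helicase is activated had an unadjusted p above 0.05 in the comparison over all mice. *Mcm10* (chr2:4989714-5012791), which is no ring subunit but binds the ring when origins fire, had 48.5, 46.6, 27.7, 38.1 and 67.9 normalized read counts in young and 14.6 to 57.6 in old mice, with a median of 34.4. Means were 45.8 ± 14.9 (SD, n = 5) in young mice against 34.5 ± 17.4 (SD, n = 7) in old mice. Its log2 change, old over young, was -0.50 (SE 0.34, adjusted p = 0.9997 by limma), and the exact permutation test gave p = 0.221. *Gins1* (chr2:150905400-150931280), the lowest member before correction for length, had 10.3, 12.98, 18.2, 14.5 and 15.6 normalized read counts in young and 5.22 to 28.3 in old mice, with a median of 11.4. Its old mice spread beyond the young ones on both sides. Means were 14.3 ± 2.97 (SD, n = 5) in young mice against 13.4 ± 8.43 (SD, n = 7) in old mice. The log2 change, old over young, was -0.27 (SE 0.45, adjusted p = 0.9997 by limma), with p = 0.504 in the exact permutation test, and values rested on 15 to 93 reads.

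**Figure D1:**
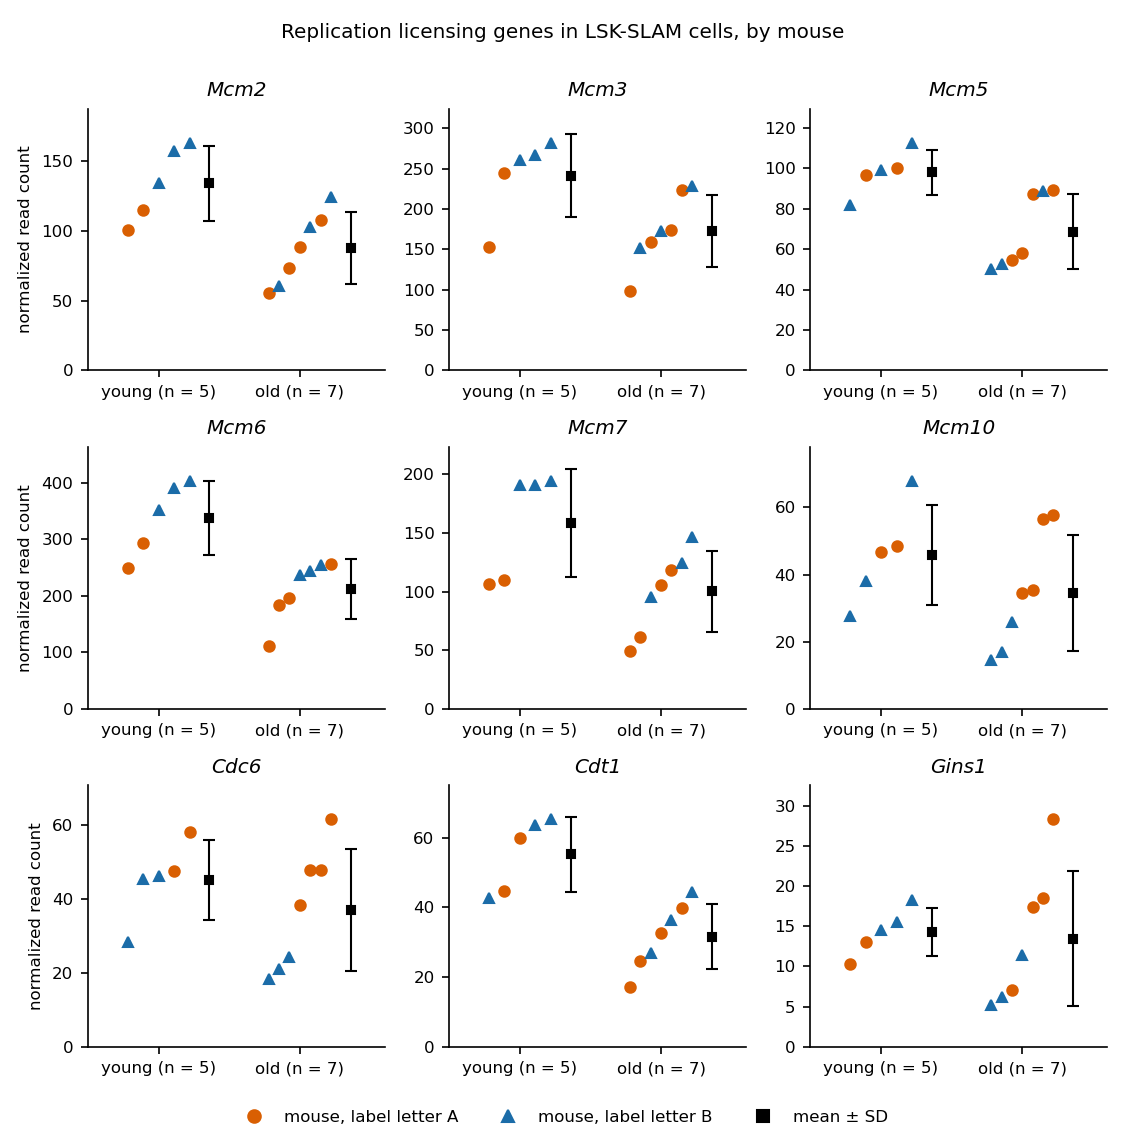
Normalized read counts (vertical axes, from 0) of the 9 licensing genes in each young and each old mouse, with the label letter of the mouse as colour and shape and with mean ± SD as black squares. The ages overlap in every panel, and 6 of 7 old mice lie below every young mouse in the panel of *Cdt1*.

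In no member did all old mice lie below all young mice, which was the case in 0.17% of the genes tested. Within letter A it was the case in 2 members, *Mcm5* and *Cdt1*, against 5.31% of all genes, and within letter B in 7, against 6.18%. These 7 were *Mcm2*, *Mcm3*, *Mcm6*, *Mcm7*, *Mcm10*, *Cdc6* and *Gins1*. For *Mcm7* within letter B the mean was 192 ± 2.06 (SD) in the 3 young mice against 122 ± 25.7 (SD) in the 3 old mice. For *Mcm6* it was 382 ± 26.7 and 245 ± 9.08 (SD, n = 3 each). With so few mice the smallest two-sided p of an exact permutation test is 0.0667 within letter A and 0.1 within letter B. At 0.1, those 7 members had the smallest p possible within letter B.

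With the letter as a covariate in limma, 8 of 9 members had an unadjusted p under 0.05 and were lower in old mice, all but *Gins1*, against 2.66% of all genes. At an adjusted p under 0.05 there were again 0 members, and 37 genes (0.299%). *Mcm6* and *Cdt1* came closest, with log2 fold changes of -0.61 (SE 0.19) and -0.77 (SE 0.24) and an adjusted p of 0.318 each. The covariate moved the log2 fold change of *Mcm10* to -0.64 and that of *Cdc6* to -0.51, and the member median to -0.57, against -0.05 over all genes.

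Fitted within letter B alone, 8 members had an unadjusted p under 0.05 and lower values in old mice (background 3.65%), and 1, *Mcm6*, passed the adjusted threshold with a log2 fold change of -0.64 (SE 0.16, adjusted p = 0.0455 by limma), where 0.809% of all genes did. Within letter A alone the number at an unadjusted p under 0.05 was 1, *Cdt1* with -0.90 (SE 0.42), against a background of 0.567%. The member median was -0.67 within letter B and -0.44 within letter A. *Mcm10* had -1.12 within letter B and -0.09 within letter A, *Cdc6* -0.86 and -0.12, and *Gins1* -1.05 and 0.44. A difference of the age effect between letters passed the interaction test in 0 members and in 0.0162% of all genes. The interaction had an unadjusted p of 0.0559 for *Mcm10*, 0.118 for *Cdc6* and 0.0719 for *Gins1* (limma, adjusted p = 0.9998 each). For the ring genes the estimates within the letters lay closer together, from -0.59 to -0.30 in letter A and from -0.71 to -0.57 in letter B.

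**Figure D2:**
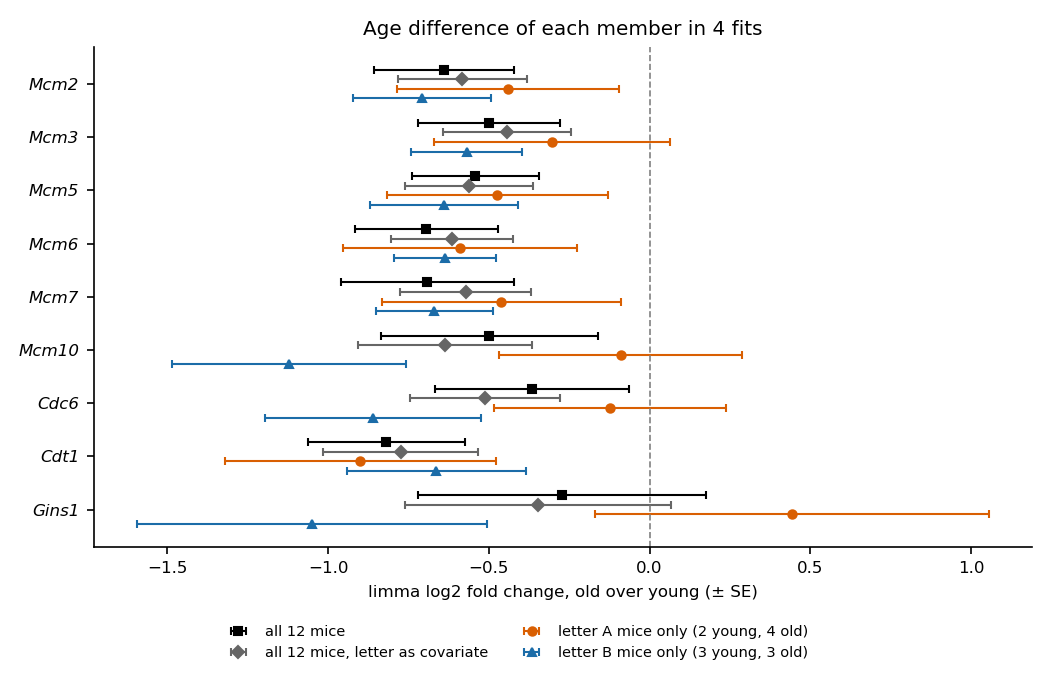
Limma log2 fold change of old over young mice (horizontal axis, with standard error) for each member in 4 fits. Every member but *Gins1* stays below 0 in every fit shown, and *Gins1* ranges from -1.05 in letter B to 0.44 in letter A.

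Members also differed between the letters themselves. In the model with age and letter, *Cdc6* and *Mcm10* were lower in letter B, as were 25.6% of all genes, and *Mcm7* was higher in letter B, as were 10.5%. *Cdc6* had a mean of 50.2 ± 8.40 (SD, n = 6) normalized read counts in letter A and 30.6 ± 12.3 (SD, n = 6) in letter B, a log2 difference of -0.86 (limma adjusted p = 0.00649). *Mcm10* had 46.5 ± 10.03 and 31.8 ± 19.5 (SD, n = 6 each), a log2 difference of -0.80 (limma adjusted p = 0.0223). The call for *Mcm10* was lost when old mouse 2, 4 or 5 was left out. *Mcm7* went the other way, from 91.8 ± 28.9 to 157 ± 41.5 (SD, n = 6 each), a log2 difference of 0.70 (limma adjusted p = 0.00971). *Mcm6* had a log2 difference of 0.47 (limma adjusted p = 0.0515). The letters also separate the mice by depth, and what the letter stands for and depth cannot be told apart here.

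Compared per kilobase of exons, ring genes filled the 5 highest places. The mean over the 12 mice was 56.7 ± 18.3 (SD, n = 12) normalized read counts per kilobase for *Mcm6*, 53.6 ± 15.3 for *Mcm3*, 28.1 ± 10.9 for *Mcm7*, 20.3 ± 5.37 for *Mcm5* and 15.4 ± 4.97 for *Mcm2*. Then followed *Cdt1* with 13.2 ± 4.90, *Gins1* with 9.11 ± 4.28, *Cdc6* with 7.73 ± 2.74 and *Mcm10* with 5.09 ± 2.17. Of the 8 steps between neighbours in this order, 3 passed a two-sided exact sign-flip permutation test over mice at an adjusted p under 0.05. *Mcm3* was above *Mcm7* in 12 of 12 mice (log2 difference 0.98, adjusted p = 0.00391). Of the 50-base words of *Mcm7*, 23.3% occur in other genes, against 0 of those of *Mcm3*. How far this entered the level of *Mcm7* was not tested. *Mcm5* was above *Mcm2* in 10 of 12 mice (exact permutation test, adjusted p = 0.0182), and *Cdc6* above *Mcm10* in 10 of 12 (exact permutation test, adjusted p = 0.00781). *Mcm6* and *Mcm3* were not told apart, with *Mcm6* above in 6 of 12 mice. Nor were *Mcm7* and *Mcm5*, *Mcm2* and *Cdt1*, *Cdt1* and *Gins1*, or *Gins1* and *Cdc6*. With the longest annotated transcript as the length, *Mcm2* came before *Mcm5* and *Mcm7* above *Mcm2*, and 5 of the 8 steps passed. With that length *Cdc6* was above *Mcm10* in 7 of 12 mice and the call was lost (log2 difference 0.10, exact permutation test, adjusted p = 0.525), while *Gins1* above *Cdc6* passed (9 of 12 mice, exact permutation test, adjusted p = 0.0117). The order of *Mcm5* and *Mcm2*, and which steps below *Mcm3* passed, thus depended on the length chosen.

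**Figure D3:**
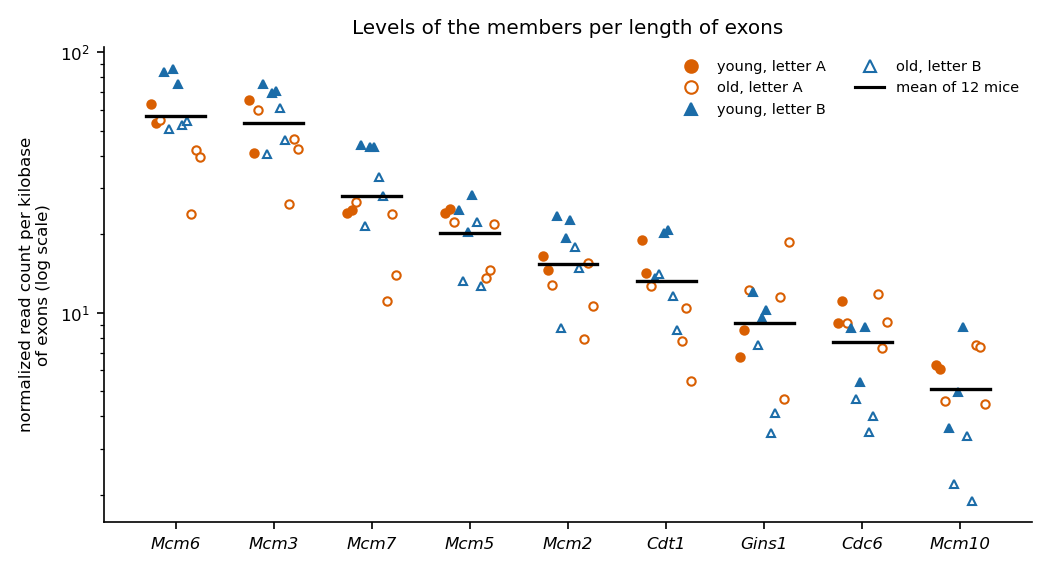
Normalized read counts per kilobase of exons (vertical axis, log scale) of each member in the 12 mice, ordered by mean (black lines), with age as fill and letter as colour and shape. *Mcm6* and *Mcm3* lie highest at means of 56.7 and 53.6, and *Mcm10* lowest at 5.09.

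How members vary between mice was described after centring the log2 values on the mean of the mice with the same age and letter, which leaves age and letter out. Over the 12 mice, the 10 pairs of ring genes had a median Pearson r of 0.677, from 0.390 to 0.864, and each of the 10 was positive. The highest was that of *Mcm3* and *Mcm6* at 0.864, followed by *Mcm2* and *Mcm7* at 0.821. For the 20 pairs of a ring gene with another member the median was -0.07, from -0.674 to 0.459, and for the 6 pairs among the members outside the ring -0.14. *Cdc6* was negatively related to every ring gene, from -0.536 with *Mcm3* to -0.0115 with *Mcm5*. *Gins1* had -0.674 with *Mcm2* and 0.561 with *Cdc6*. All 36 member pairs had a median of 0.0584 and all pairs of genes tested one of 0.01002. The points share libraries, their depth and a common scaling, so these are descriptions and carry no p. The centring used groups of 2 to 4 mice, so fewer than 12 values are free to vary. For *Mcm6* the old mice with letter A ran from 111 (old mouse 5) to 257 (old mouse 1). Those with letter B ran only from 237 to 255. How far single mice carried these r was not tested.

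**Figure D4:**
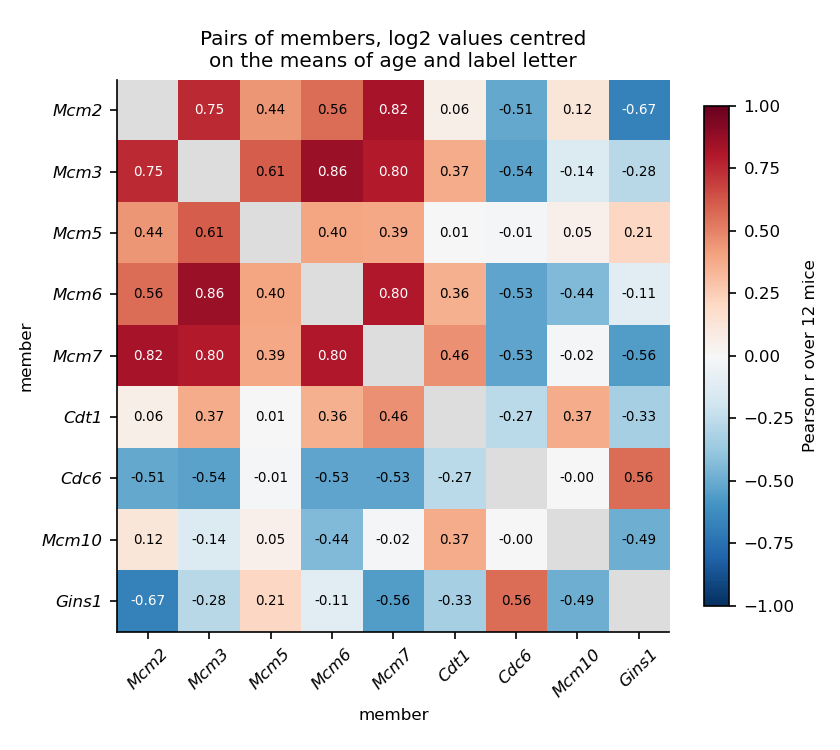
Pearson r over 12 mice for each pair of members (rows and columns), on log2 values centred on the means of age and label letter, coloured from -1 to 1. The block of 5 ring genes at the upper left is positive throughout, from 0.390 to 0.864, while *Cdc6* is negative with each of them.

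The genes most like the licensing genes were sought among all other genes tested, by Pearson r with the mean of the 9 members over the 12 mice after centring on the letter means. The 8 with the highest r were *Ckap2* (0.884), *Kif4* (0.878), *Cdca3* (0.857), *Emcn* (0.852), *Tmem60* (0.847), *Garem1* (0.845), *Rita1* (0.845) and *Tbc1d16* (0.839). The first of them are known from mitosis, *Ckap2* as a spindle protein and *Kif4* as a chromosome-bound motor. *Ckap2* had means of 39.1 normalized read counts in young and 20.2 in old mice, and *Kif4* of 50.4 and 28.3. *Emcn* encodes endomucin, a surface sialomucin, with 52.6 ± 8.37 (SD, n = 5) against 33.4 ± 11.4 (SD, n = 7). This centring keeps the age difference, so that a gene that is lower in old mice scores high on this measure. Among members the r with their own mean ran from 0.396 for *Gins1* to 0.856 for *Mcm5*.

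Other genes of origin licensing and firing were described by list. None of the lists in this paragraph held a gene with an adjusted p under 0.05 in the comparison over all mice. The origin recognition complex had 6 of 6 genes tested, 0 of them with an unadjusted p under 0.05, and a median log2 fold change of -0.08. *Orc2* had 61.9 ± 16.9 (SD, n = 5) normalized read counts in young mice against 53.1 ± 11.8 (SD, n = 7) in old mice, and *Orc6* had 27.1 ± 5.28 and 24.5 ± 4.90. Among relatives of the ring, *Mcmbp*, a protein that binds it, had a log2 change of -0.18 (SE 0.20) and *Mcm8*, a helicase of recombination, -0.16 (SE 0.35), and 0 of the 3 tested had an unadjusted p under 0.05. The third, *Mcmdc2*, named after its values were seen, had 0.23 (SE 0.56). In the remaining GINS genes *Gins4* had -0.45 (SE 0.34) and *Gins2* -0.28 (SE 0.33), again 0 of 3. *Gins3*, also named after its values were seen, had 0.11 (SE 0.34). Of the 4 origin firing factors tested, 1 had an unadjusted p under 0.05 and lower values in old mice, against 1.99% of all genes. This was *Cdc7*, the kinase that activates the loaded ring. It had 47.2 ± 7.06 (SD, n = 5) normalized read counts in young mice against 31.2 ± 12.1 (SD, n = 7) in old mice, with a log2 change of -0.67 (SE 0.28, adjusted p = 0.9997 by limma). *Topbp1*, which brings factors to the firing origin, had -0.42 (SE 0.20).

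Of the genes that limit licensing, 6 were tested, 5 of them with a log2 fold change below 0, and the median was -0.06. A single one had an unadjusted p under 0.05 and lower values in old mice, against 1.99% of all genes. It was *Dtl*, the adaptor by which the CUL4 ubiquitin ligase recognises CDT1, with 95.1 ± 23.2 (SD, n = 5) normalized read counts in young mice against 55.6 ± 13.8 (SD, n = 7) in old mice, with a log2 change of -0.77 (SE 0.20, adjusted p = 0.326 by limma). *Dtl* passed the threshold within letter B, with -1.10 (limma adjusted p = 0.0115). *Skp2*, part of another ligase that marks CDT1, had -0.40 (SE 0.26). *Gmnn*, which encodes geminin and was added to the named genes after its values had been seen, had 16.0 ± 6.57 (SD, n = 5) against 15.6 ± 7.37 (SD, n = 7), or a log2 change of -0.05 (SE 0.43). Of 11 E2F and pocket protein genes tested, 2 had an unadjusted p under 0.05 and lower values in old mice, against 1.99% of all genes. These were *E2f1*, an activator, at -0.83 (SE 0.29, adjusted p = 0.873 by limma) and *E2f8*, a repressor, at -0.66 (SE 0.30, adjusted p = 0.9997 by limma), and the list median was -0.06.

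Fork and polymerase genes were the largest list, with 21 tested, a median of -0.39 and 19 log2 fold changes below 0. Of the 21, 9 had an unadjusted p under 0.05 and lower values in old mice, against 1.99% of all genes. *Lig1*, the ligase that joins Okazaki fragments, had 91.8 ± 21.9 (SD, n = 5) normalized read counts in young mice against 55.7 ± 16.6 (SD, n = 7) in old mice, with a log2 change of -0.74 (SE 0.24, adjusted p = 0.709 by limma). *Pold1*, the catalytic subunit of polymerase delta, had 92.1 ± 11.7 and 64.5 ± 10.3, or a log2 change of -0.51 (SE 0.17, adjusted p = 0.761 by limma). Fork protection and checkpoint genes had a median of -0.31 with 0 of 8 at an unadjusted p under 0.05, *Chek1* at -0.41 (SE 0.21) and *Tipin* at -0.37 (SE 0.27). Among 9 proliferation markers the median was -0.66 and 8 log2 fold changes were below 0. Of the 9, 4 had an unadjusted p under 0.05 and lower values in old mice, against 1.99% of all genes. *Plk1* had a log2 change of 0.15 (SE 0.35), *Ccnb1* -0.12 (SE 0.39) and *Aurkb* -0.22 (SE 0.27). *Top2a*, the topoisomerase of dividing cells, had 306 ± 76.5 (SD, n = 5) against 182 ± 51.5 (SD, n = 7), or a log2 change of -0.75 (SE 0.23, adjusted p = 0.642 by limma), and *Cdk1* had -0.74 (SE 0.27, adjusted p = 0.900 by limma). Within letter A the proliferation markers had a median of -0.23 with 0 of 9 at an unadjusted p under 0.05. There 7 of 9 were below 0, with *Ccnb1* at 0.86 and *Plk1* at 0.41. Within letter B the median was -0.94, and 7 of 9 had an unadjusted p under 0.05 and lower values in old mice, against 3.65% of all genes. Within letter B, 3 proliferation markers passed the adjusted threshold, against 0.809% of all genes. These were *Top2a* (limma adjusted p = 0.00841), *Mki67* (0.0115) and *Ccna2* (0.000747). The polymerase gene *Pola1* (0.0247) passed it too, while within letter A none of these 4 did. *Mki67*, *Ccna2*, *Pola1*, *Plk1*, *Ccnb1* and *Aurkb* were named after their values were seen. The medians of the fork and polymerase genes were -0.38 in letter A and -0.37 in letter B. The summed level of the 9 proliferation markers ranged from 831 to 1757 over the young and 661 to 1277 over the old mice, and that of the 5 ring genes from 714 to 1130 and from 368 to 833. How far the share of cycling cells entered the values of the licensing genes was not tested.

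**Figure D5:**
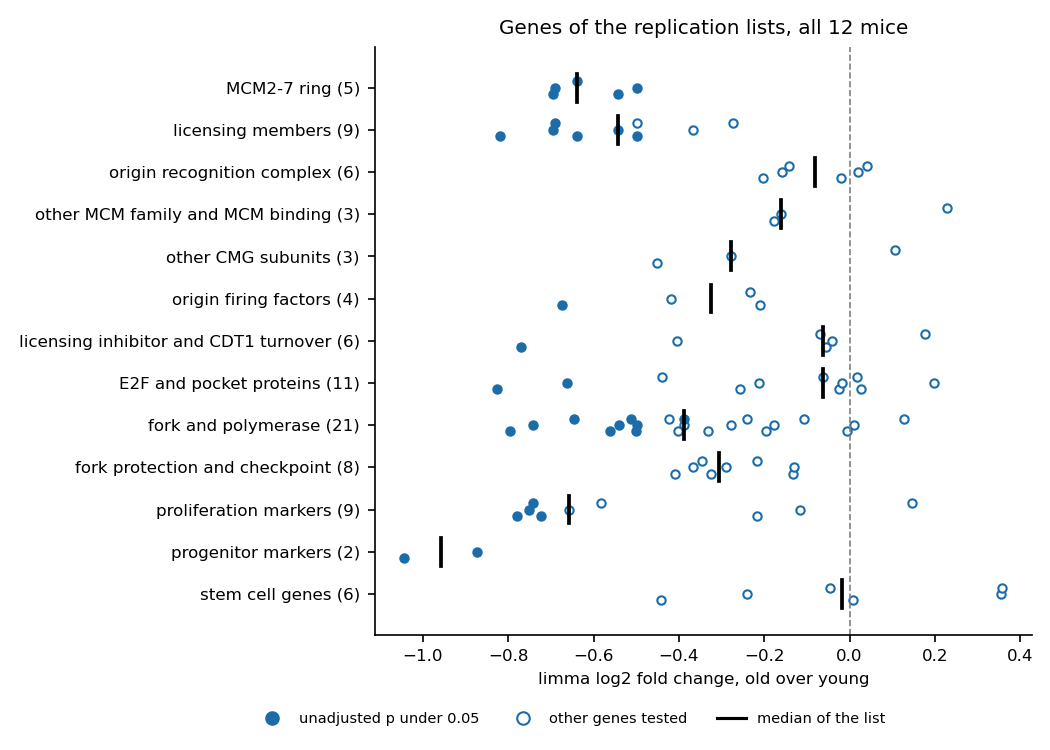
Limma log2 fold change of old over young (horizontal axis) of each gene tested in the replication, progenitor and stem cell lists, with the number tested in brackets, filled points for an unadjusted p under 0.05 and black bars for list medians. The ring lies at a median of -0.64 and proliferation markers at -0.66, while the origin recognition complex lies at -0.08.

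Markers of the sort and of other cells were checked beside these results, with *Kit* and *Cd48* named after their values were seen, to complete the sort genes. The sort genes *Kit*, *Ly6a* and *Slamf1* were detected and tested, *Slamf1*, which encodes CD150, at a log2 change of 0.42 (SE 0.25), *Ly6a*, which encodes Sca-1, at 0.19 (SE 0.32) and *Kit* at -0.21 (SE 0.41), while *Cd48* stayed under the filter with 7.30 ± 1.97 (SD, n = 5) normalized read counts in young mice against 5.38 ± 4.80 (SD, n = 7) in old mice. Stem cell genes had a median of -0.02 over 6 genes, with *Ctnnal1* at 0.35 (SE 0.21) and *Procr* at 0.36 (SE 0.23). Genes of more differentiated progenitors had lower values in old mice, beside the licensing genes. An unadjusted p under 0.05 was found in 2 of 2 tested, against 1.99% of all genes lower in old mice. *Cd34* had 182 ± 53.0 (SD, n = 5) normalized read counts in young mice against 84.5 ± 10.4 (SD, n = 7) in old mice, with a log2 change of -1.04 (SE 0.20, adjusted p = 0.0544 by limma, and 0.00856 with the letter as a covariate). *Flt3* had 54.1 ± 13.6 and 30.8 ± 13.01, or a log2 change of -0.87 (SE 0.29, adjusted p = 0.780 by limma). Within letter B, where *Mcm6* passed the threshold, *Cd34* at -1.10 (limma adjusted p = 0.000808) and *Slamf1* at 0.88 (limma adjusted p = 0.0235) passed it too, and within letter A they had -0.87 and 0.09 without passing. The part of progenitor content in the lower licensing values was not tested.

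Neutrophil and monocyte markers had a median log2 fold change of 2.13 within letter A and -1.30 within letter B over 7 genes. Below 0 were 0 of the 7 within letter A and 6 within letter B. *Prtn3* was above 0 in both, with 0.30 within letter A and 0.85 within letter B. Their summed level ranged from 172 to 491 over the young and 166 to 2318 over the old mice, *S100a9* had a log2 change of 1.12 (SE 0.75) and *Prtn3* 0.53 (SE 0.27). Of these 7 genes, 1 passed the threshold within letter B, where 0.809% of all genes did. This was *Mpo*, named after its values were seen, at -2.16 (limma adjusted p = 0.0464), against 1.64 within letter A. Erythroid markers ranged in sum from 128 to 254 over the young and 86.0 to 779 over the old mice, with *Hbb-bs* at 0.65 (SE 0.46) and *Epor* at -0.43 (SE 0.35). B cell markers summed to 63.6 to 149 and 63.4 to 174, with 4 of 6 genes over the filter, *Ebf1* at 0.44 (SE 0.41) and *Pax5* at 0.12 (SE 0.53). T cell markers summed to 26.3 to 95.7 and 16.7 to 159, with 3 of 6 over the filter, *Lck* at 0.17 (SE 0.41) and *Cd4* at -0.13 (SE 0.70). Megakaryocyte markers summed to 374 to 599 and 412 to 919, with *Vwf* at 0.77 (SE 0.26, adjusted p = 0.780 by limma) and *Pf4* at -1.33 (SE 0.45, adjusted p = 0.796 by limma). Both passed the threshold within letter B, *Vwf* at 1.002 (limma adjusted p = 0.000403) and *Pf4* at -2.11 (limma adjusted p = 0.0192), and within letter A they had 0.73 and -0.40 without passing. Endothelial and stromal markers summed to 156 to 274 and 109 to 347, with *Emcn* at -0.70 (SE 0.25) and *Kdr* at 0.47 (SE 0.25). Other list medians also changed sign between the letters. They were 0.86 within letter A and -0.25 within letter B for erythroid markers, and 0.35 and -0.35 for B cell markers. For T cell markers they were 0.07 and -0.27, and for endothelial and stromal markers 0.26 and -0.76. Megakaryocyte markers had 0.44 and 0.43. No marker with a row was at 0 in all mice, and the part of these cells in the values of the members, *Mcm6* within letter B included, was not tested.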

How the data were processed

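LSK-SLAM cells of 12 Wt mice, 5 young and 7 old, had been sorted and their RNA, after removal of ribosomal RNA, made into libraries with the TotalScript kit for Illumina sequencing. The submitters' processing notes name FastQC 0.11.8, STAR 2.5.4b, edgeR 3.24.3 and build mm10; the counting tool, its annotation and its use of strand are not given in the sources used here. The authors deposited 1 signal value per gene and mouse, the normalized read count, which is reads divided by library size and a scaling factor, on the scale of CPM. A second deposited table holds the authors' own comparison (log2 fold change, log2 CPM, likelihood ratio, p-value and FDR) and was not used.

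Of all values, 100% were whole multiples of the value of 1 read within a tolerance of 0.01, so whole reads were recovered. Values were compared as log2(value + 1) with limma 3.58.1 in R 4.3.3 (lmFit, eBayes with trend, minimum mean 10, Benjamini-Hochberg adjustment over all genes tested). Fold changes of low genes depend on this scale. For *Gins1*, the lowest member, the limma log2 fold change was -0.29 with 0.5 added, -0.27 with 1 and -0.18 with 5. The quasi-likelihood fit of edgeR on recovered reads gave -0.13 for it. edgeR 4.0.16 and DESeq2 1.42.0 were run on recovered reads. Exact permutation tests used all 792 splits of the mice, with a smallest p of 0.00126, and were not adjusted over the 9 members. Levels per kilobase were compared as log2(value + 0.01) with sign flips within mice. The rest was computed with pandas 2.3.3, scipy 1.17.1 and numpy 2.4.6 under Python 3.11.15. Limma and the quasi-likelihood fit of edgeR were run on simulated data with larger changes than those of the members and no letter effect. That check does not cover changes of the size reported here. The spread between mice covers biological and technical spread together, and 3 reads, the floor of detection, correspond to 0.583 to 3.69 normalized read counts for counting error only.

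The members and gene lists were chosen with earlier results of these data known. Named genes are all members with a row, up to 2 genes of each list with the smallest p, and the 8 genes most like the members; genes named outside this rule are marked where they appear. Positions and lengths came from GENCODE vM21, promoters from RefSeq on GRCm38.p6. Alternatives were other pseudocounts, filters, scalings and tests, the letter as a covariate or as a subset, a replicate block, and leaving out each mouse.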

Additional observations from a re-analysis of the deposited data

Results flagged for a closer look

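*Mcm3* in young mouse 2 stood apart from the other young mice, with 153 normalized read counts against 245 to 282 in the other 4 (Dixon's criterion for a single value). Of 18 groups examined, 9 members in 2 ages, 1 was marked, where 0.9 would be marked by chance. The mouse has letter A, as has young mouse 1 at 245.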

How the results depend on the processing

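The count of genes called between the ages depended on the fit, 13 in the comparison over all mice. It was 57 with DESeq2, 41 with edgeR's likelihood-ratio test, 43 with edgeR's quasi-likelihood test and the letter as a covariate, 37 with limma and that covariate, 1 in letter A, 100 in letter B, 22 with a minimum mean of 30, 2 without trend, and 3 to 32 when single mice were left out (32 without old mouse 5, 3 without old mouse 1, 2 or 3 or young mouse 3 or 4, 4 without young mouse 5, 6 without young mouse 1, 7 without old mouse 6). Members called stayed at 0 in each setting but letter B alone, with 1 (*Mcm6*), and leaving out single mice gave 0 to 0. Members with an unadjusted p under 0.05 numbered 4 to 6 without single mice (4 without young mouse 3, 4 or 5). The member median stayed between -0.65 and -0.49 there. Old mouse 5 had the lowest values of *Mcm2*, *Mcm3*, *Mcm6* and *Mcm7*. Without it their log2 fold changes were -0.54, -0.37, -0.55 and -0.54, those of *Mcm5* and *Cdt1* -0.49 and -0.77. *Mcm10*, *Cdc6* and *Gins1* moved further from 0, to -0.65, -0.51 and -0.37. Each member but *Gins1* was below 0 in 29 of 29 alternatives, and *Gins1* turned to 0.44 in letter A, with 26 of 27 below 0. Members differing between letters numbered 2 to 4 without single mice. Neighbours that differ per kilobase numbered 5 with the longest transcript and 0 in mice of letter A or of letter B, where 6 mice allow no p under 0.0312. Young and old mice with the same replicate number are different animals. Deviations correlated from -0.559 to 0.615 (mean 0.136) over the 5 pairs of mice with the same number. Over 30 pairs with different numbers they correlated from -0.707 to 0.712 (mean -0.02). So few pairs cannot decide whether the numbers pair mice, and the comparison over all mice used no pairing. With a replicate block over numbers 1 to 5, 19 genes and 0 members were called, the member median was -0.60, and the same mice without the block gave 8 genes. That fit and rescaling by median ratios with the letter as a covariate (44 genes, 0 members) were chosen after seeing the data. The causes of these shifts were not tested. Depth limits *Gins1* and *Cdt1* most, with as few as 15 and 14 reads.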
